A study of Mus musculus with 77 samples.

Results

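The genes described here encode enzymes that write and erase histone and DNA methylation, enzymes that remove histone acetylation, proteins that bind acetylated histones, and remodellers that move nucleosomes. They were taken by name from a table of mouse blood cell enhancers, each assigned by the authors to a gene. A gene was included where its symbol began with Kdm, Hdac, Setd, Smarc, Chd, Brd, Mll, Ezh, Dnmt or Tet and fitted the fixed form of those families. The pattern reads names only, but it was set with earlier results of these data known. This gave 66 of the 10096 genes in the table, with 318 of its 44002 enhancers. By family there were 8 lysine demethylases, 9 histone deacetylases, 11 SET domain proteins, 4 MLL genes and 5 MLL fusion partners. The others were 6 subunits of the BAF (SWI/SNF) remodelling complexes, 2 other SNF2 ATPases, 9 CHD remodellers, 5 bromodomain proteins, 4 genes of the DNA methyltransferase family and 3 TET dioxygenases. The name pattern also took genes whose products are not chromatin enzymes or remodellers, and 7 of them were set apart for a check. These 7 are the fusion partners Mllt1, Mllt3, Mllt4, Mllt6 and Mllt10, and the methyltransferases Setd3 and Setd6, known for acting on actin and on a subunit of NF-kB. The bromodomain readers and the catalytically inactive Dnmt3l were not set apart. Ezh1 and Ezh2, which the pattern allows for, were not analysed here.

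The study followed enhancers and transcription factors along granulocyte and monocyte development in mouse bone marrow, in wild type cells and in cells that lack Cebpa, the gene of a transcription factor needed to make granulocytes. The groups used were LSK cells (lineage negative, Sca-1 positive, Kit positive), which hold stem cells and multipotent progenitors, preGM (lineage and Sca-1 negative, Kit positive, CD150 and CD105 negative), GMP (the granulocyte-monocyte progenitors, with Fc gamma receptors II/III on the surface) and granulocytes (Mac1 and Gr-1 positive). All of these were wild type, and preGM were also sorted from Cebpa knockout (KO) marrow. The sources used here give no strain, age or account of how the deletion was made.

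For each enhancer the table holds 1 chromatin immunoprecipitation (ChIP-seq) signal per group. H3K27ac marks active enhancers and H3K4me1 marks enhancers whether active or poised. Both cover the 4 wild type stages and KO preGM. PU.1, a master regulator of myeloid genes, was measured in the same groups other than granulocytes, and CEBPA in wild type preGM only. A gene's signal is the mean over its enhancers, in the authors' units. Each gene also has expression values in 2 sets of columns, of the 4 wild type stages and of wild type and KO preGM. For wild type preGM the 2 sets differ gene by gene, among the members at Kdm2b, Smarcd2 and Chd3, as given below. The labels list 2 libraries for each ChIP-seq group and 3 for each RNA group used, but the table gives 1 value per group, so there are no replicates, no error and no test in what follows. Differences are log2 ratios after a pseudocount was added to both values (0.7 for H3K27ac, 2 for H3K4me1, 0.6 for PU.1 and 40 for expression), which understates the change of low genes. A gene was counted as higher or lower from a 2-fold difference on that scale, and the first count over the members in each comparison is set beside the percentage of all 10096 genes that passed the same limit.

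Gene expression depends on how DNA is packed. Acetylation of histone tails opens chromatin, and deacetylases (HDACs) with their corepressors close it. Methyl groups on histone H3 lysine 4 mark promoters and enhancers, while those on lysine 27 and lysine 9 mark silenced genes. KDM enzymes remove these groups, and SET domain and MLL enzymes add them. BAF, CHD and ISWI remodellers use ATP to slide or evict nucleosomes. Dnmt1 copies DNA methylation onto newly made strands, Dnmt3a and Dnmt3b add it anew, and TET enzymes oxidise it. Several of these genes, among them Tet2, Dnmt3a and Mll1, are recurrently mutated or rearranged in myeloid leukaemia.

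The enhancers themselves could not be shown as sequence here, so promoters are shown, for members whose expression differed between GMP and granulocytes. RefSeq promoters (build GRCm38.p6) were found for 51 of the 66 genes, 76 in all. The 250 bases before each start were searched on both strands for 3 motifs. The PU.1 motif (GAGGAAGT) was in 0 of the 76 member promoters and in 2.44% of all 32851 promoters. The C/EBP motif (TTGCNNAA) was in 4 member promoters (5.26%), those of Brd7, Chd1l, Mllt10 and Smarcd2, and in 9.56% of all. An E2F motif (TTTCCCGC or TTTGGCGC) was in 1, that of Brd7 (1.32%; all promoters, 1.30%), and did not overlap the C/EBP match there. The member promoters held a median of 21 CG dinucleotides, the substrate of the DNA methyltransferases, compared with 15 for the genes of the enhancer table and 6 for all promoters. The 4 promoters below were chosen after their values were seen. Chd1l (chr3:97610191-97610440, minus strand) and Smarcd2 (chr11:106267633-106267882, minus strand) are shown because they hold the C/EBP match, in capitals, and both genes had lower expression in granulocytes. Dnmt3b (chr2:153649199-153649448, plus strand) and Hdac4 (chr1:92180342-92180591, minus strand) are shown with each CG in capitals, as members with lower and with higher expression in granulocytes and a similar number of CGs, 21 and 23.
Chd1l: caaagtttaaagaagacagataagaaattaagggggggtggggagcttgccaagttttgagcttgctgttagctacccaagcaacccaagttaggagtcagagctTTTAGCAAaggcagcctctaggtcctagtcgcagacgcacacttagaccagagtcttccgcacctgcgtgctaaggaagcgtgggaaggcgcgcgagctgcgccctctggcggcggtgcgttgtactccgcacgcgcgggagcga
Smarcd2: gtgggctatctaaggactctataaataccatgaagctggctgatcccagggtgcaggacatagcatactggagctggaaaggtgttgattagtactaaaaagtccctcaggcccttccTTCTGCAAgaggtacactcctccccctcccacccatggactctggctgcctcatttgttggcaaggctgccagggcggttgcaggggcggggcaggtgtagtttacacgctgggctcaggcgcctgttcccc
Dnmt3b: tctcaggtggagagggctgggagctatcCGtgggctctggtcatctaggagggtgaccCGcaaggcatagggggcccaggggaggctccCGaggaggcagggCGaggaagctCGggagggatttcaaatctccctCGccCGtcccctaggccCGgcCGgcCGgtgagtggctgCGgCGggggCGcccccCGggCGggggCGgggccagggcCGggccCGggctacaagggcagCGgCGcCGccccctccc
Hdac4: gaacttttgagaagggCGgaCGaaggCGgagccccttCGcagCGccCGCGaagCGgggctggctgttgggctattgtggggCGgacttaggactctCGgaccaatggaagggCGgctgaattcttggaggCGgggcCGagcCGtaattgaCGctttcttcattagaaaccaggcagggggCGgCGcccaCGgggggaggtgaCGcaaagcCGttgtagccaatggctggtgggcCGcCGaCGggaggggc
A match is a run of letters, not a bound site.

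The members had a median of 2 enhancers each, as did all genes. Chd2, a remodeller of the CHD family, had the most, 22, followed by Hdac4 with 20. There were 24 members with 1 enhancer (36.4%; all genes, 34.0%) and 12 with at least 10. The authors' annotation put LSK among the stages of 66 member enhancers (20.8%), compared with 15.3% of all enhancers, and granulocytes among those of 125 (39.3%; all, 42.5%). It named no bound factor for 197 (61.9%; all, 59.5%), PU.1 for 91 (28.6%; all, 28.3%) and CEBPA for 52 (16.4%; all, 21.5%). These shares are descriptions of the table and were not tested.

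Marker genes fitted the labels of the wild type stages. The summed expression of 9 mature neutrophil genes was 4512 in GMP and 57814 in granulocytes, that of 4 primary granule genes 38358 in GMP and 3318 in granulocytes, and that of 7 stem and progenitor genes 11131 in LSK and 718 in granulocytes. Of the other lists, 5 monocyte genes summed to 8293 in GMP and 2345 in granulocytes, the 2 measured erythroid genes of 5 to 79.6 and 289, the 2 measured B cell genes of 5 to 37.4 and 49.6, and the 3 measured T and NK cell genes of 5 to 49.6 and 89.9. No gene is listed at 0 in these columns. The part of other cells in the differences below was not tested.

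Expression of chromatin genes differed little between LSK and preGM and widely between GMP and granulocytes. From GMP to granulocytes 17 of the 66 members were at least 2-fold lower and 9 at least 2-fold higher, compared with 18.9% lower and 11.4% higher among all genes. The members' median log2 ratio was -0.41, and that of all genes -0.07. In these bulk values fewer cells of a type and less RNA per cell cannot be told apart. With a pseudocount 4 times larger, 11 members were lower and 5 higher.

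**Figure D1:**
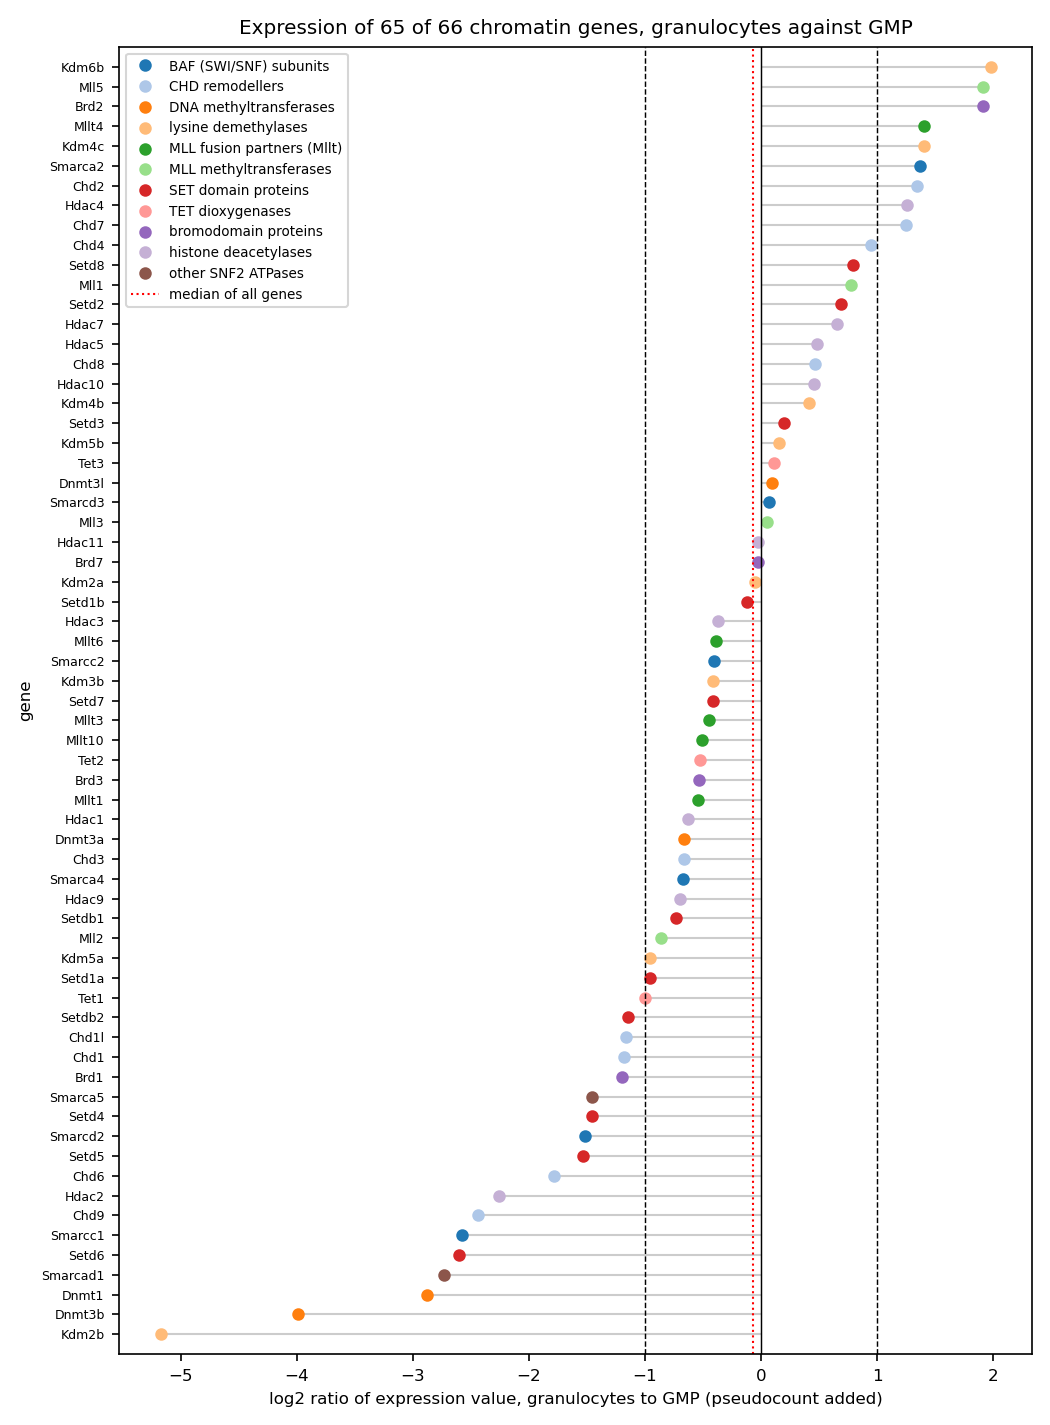
Expression of 65 of the 66 chromatin genes in granulocytes against GMP, as the log2 ratio with a pseudocount of 40 (x axis), 1 point per gene (y axis), coloured by family. Dashed lines mark 2-fold and the dotted line the median of all genes (-0.07); the points run from Kdm2b at -5.17 to Kdm6b at 1.98.

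The DNA methyltransferases included some of the lowest ratios. Dnmt1, the maintenance enzyme, had an expression value of 2507 in LSK, 2207 in preGM, 3228 in GMP and 404 in granulocytes, a log2 ratio of -2.88 for granulocytes to GMP. Dnmt3b was at 1193, 750, 979 and 24.2 in the same order, a log2 ratio of -3.99. Both were high in all 3 progenitor stages and low in granulocytes only. Dnmt3a, the other de novo enzyme, was at 270, 264, 164 and 89.0, and its step from GMP to granulocytes stayed under 2-fold (-0.66). Dnmt3l, a catalytically inactive partner of the de novo enzymes, had low values at every stage, between 20.1 and 26.4. None of the 3 TET dioxygenases passed 2-fold from GMP to granulocytes. Tet1 came closest, at 229 in LSK, 251 in preGM, 127 in GMP and 43.6 in granulocytes, a log2 ratio of -0.999, just short of the limit. Tet2 was at 215, 267, 305 and 200, and Tet3 at 42.1, 30.9, 24.5 and 29.8.

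Among the 8 lysine demethylases, Kdm2b had the lowest ratio of all members and Kdm6b the highest. Kdm2b, which brings a Polycomb complex to CG-rich promoters, was at 1460 in LSK, 2243 in preGM, 3989 in GMP and 71.5 in granulocytes, a log2 ratio of -5.17 for the last step. Kdm6b, a demethylase of lysine 27 of histone H3, was at 349, 267, 127 and 620, with the lowest value in GMP and the highest in granulocytes (1.98). Kdm4c, which acts on lysines 9 and 36, was at 81.9, 100, 84.4 and 289 (1.40). The other 5 demethylases stayed within 2-fold between GMP and granulocytes. The family's median ratio was 0.05.

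Of the 9 histone deacetylases, Hdac2 was lower in granulocytes and Hdac4 higher. Hdac2, a class I enzyme of the Sin3 and NuRD corepressor complexes, had an expression value of 1270 in LSK, 1070 in preGM, 1163 in GMP and 211 in granulocytes (-2.26). Its close relative Hdac1 was at 630, 633, 635 and 396, within 2-fold at every step. Hdac4, a class IIa deacetylase, was at 40.5, 43.3, 27.3 and 121 (1.26). Hdac7, of the same class, was at 195, 153, 107 and 191, within 2-fold. Hdac4 thus stood out as high, and Hdac2 as low, in granulocytes alone.

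The SET domain proteins had 4 of 11 members lower in granulocytes and 0 higher, with a family median of -0.73. Setd6 was at 126 in LSK, 213.9 in preGM, 265 in GMP and 9.99 in granulocytes (-2.61). Setd5 (-1.53), Setd4 (-1.46) and Setdb2, a relative of the lysine 9 methyltransferase Setdb1 (-1.15), were also at least 2-fold lower. Setd8, the enzyme that adds a single methyl group to lysine 20 of histone H4, had the family's highest ratio, 0.80, within the limit. Among the 4 MLL genes, Mll5 was at 693, 729, 291 and 1207, with its lowest value in GMP and its highest in granulocytes (1.91). Mll1, the gene rearranged in many leukaemias, was at 287, 196, 92.9 and 188 (0.78, within 2-fold), with its lowest value also in GMP but its highest in LSK. Of the fusion partners Mllt4, which encodes the cell junction protein afadin, was at 118, 99.7, 40.9 and 174 (1.40), and the other 4 had ratios from -0.54 to -0.39.

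Remodeller genes split in both directions. The BAF complex contains either Smarca2 or Smarca4 as its ATPase. Smarca2 was at 426 in LSK, 351 in preGM, 193 in GMP and 565 in granulocytes (1.37), whereas Smarca4 was at 867, 819, 687 and 417 (-0.67), within 2-fold. The core subunit Smarcc1 was at 990, 1400, 1305 and 185 (-2.58), and its paralogue Smarcc2 at 241, 197, 243 and 174 (-0.40). Smarcd2, a subunit whose loss impairs neutrophil granules, was at 3421, 4579, 6621 and 2290 (-1.52), and Smarcd3 had low values at every stage, from 18.5 to 22.4. Both other SNF2 ATPases were lower: Smarcad1 at 319, 583, 669 and 66.4 (-2.74), and the ISWI ATPase Smarca5 at 1605, 1625, 1535 and 534 (-1.46).

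The CHD family had 4 of 9 members lower in granulocytes and 2 higher. Chd9 was at 378, 468, 576 and 73.5 (-2.44), and its relative Chd6 at 422, 533, 444 and 100 (-1.79). Chd1 (-1.18) and Chd1l (-1.16) were lower by less. Chd7, a remodeller best known for its mutation in a developmental syndrome, was at 17.0 in LSK, 17.3 in preGM, 62.7 in GMP and 205 in granulocytes (1.25), higher at each step after preGM. Chd2 was at 322, 286, 214 and 605 (1.34). Chd3 and Chd4, alternative ATPases of the NuRD complex, were at 487, 324, 136 and 70.8, and at 373, 279, 246 and 513. Their last steps, of -0.67 and 0.95, had opposite signs and both stayed within 2-fold.

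Among bromodomain genes, Brd2, a reader of acetylated histones of the BET class, was at 517 in LSK, 524 in preGM, 118 in GMP and 555 in granulocytes (1.91). The low value was in GMP alone. Brd3, of the same class, was at 335, 297, 351 and 230 (-0.53), within 2-fold. Brd1, a scaffold of histone acetyltransferase complexes, was at 467, 394, 499 and 195 (-1.20).

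**Figure D2:**
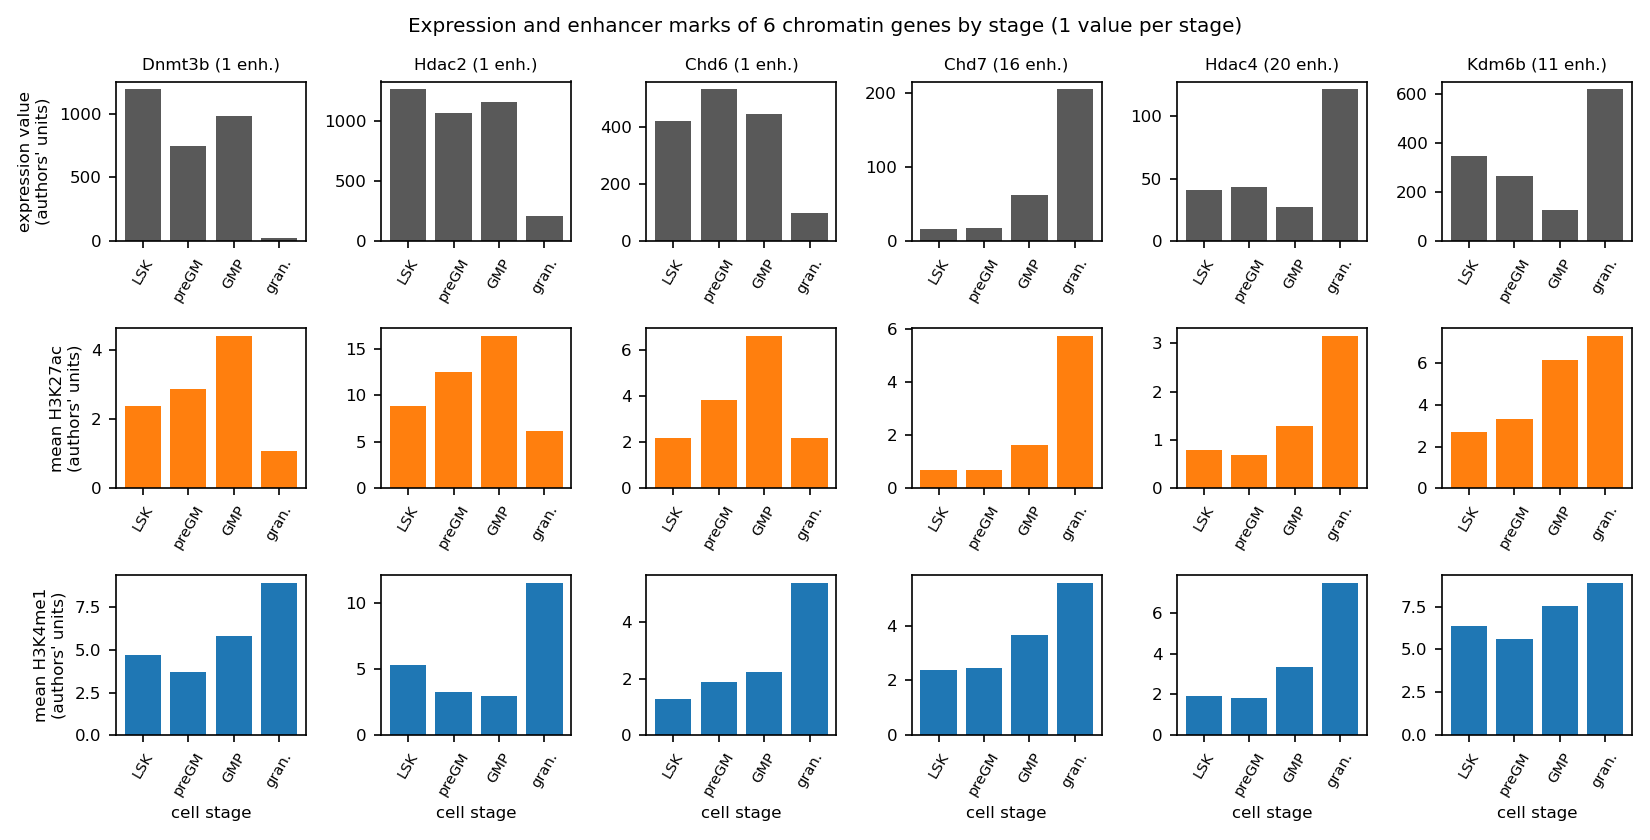
Expression, mean H3K27ac and mean H3K4me1 (y axes, authors' units, each from 0) of Dnmt3b, Hdac2, Chd6, Chd7, Hdac4 and Kdm6b in LSK, preGM, GMP and granulocytes (x axis), 1 bar per stage with no replicates. Expression and H3K27ac are lowest in granulocytes for Dnmt3b, Hdac2 and Chd6, while H3K4me1 is highest in granulocytes for all 6 genes.

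H3K27ac at the members' enhancers was at least 2-fold lower in granulocytes than in GMP for 5 genes and higher for 1, compared with 7.57% lower and 7.81% higher among all genes. Setd6 had signals of 1.73 in LSK, 2.48 in preGM, 5.22 in GMP and 1.15 in granulocytes (-1.68). Dnmt3b had 2.36, 2.87, 4.40 and 1.09 (-1.51), Chd6 had 2.18, 3.82, 6.59 and 2.17 (-1.35), Hdac2 had 8.89, 12.6, 16.4 and 6.19 (-1.31), and Chd1l had 1.83, 2.81, 5.39 and 2.21 (-1.07). In all 5 the signal was highest in GMP. No region of the table is annotated to LSK or preGM without GMP. For enhancers annotated to GMP, a peak there is therefore not independent of the annotation. Chd7 was the gene with higher signal, at 0.701, 0.702, 1.61 and 5.72 (1.47). With a pseudocount 4 times larger, only Setd6 and Hdac2 passed 2-fold.

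These 5 genes had lower H3K27ac with higher H3K4me1. The H3K4me1 signal of Hdac2 was 5.26 in LSK, 3.26 in preGM, 2.95 in GMP and 11.5 in granulocytes (1.44), that of Setd6 was 6.30, 5.02, 5.23 and 12.1 (0.96), and that of Chd6 was 1.29, 1.88, 2.25 and 5.40 (0.80). All 5 had an H3K4me1 ratio above 0, as did 83.9% of all genes with H3K27ac at least 2-fold lower. All 5 also had expression at least 2-fold lower (50.1% of such genes) and a single assigned enhancer (51.6%). Those enhancers lay, in build mm9, at chr8:98239766-98239841 for Setd6, chr2:153475117-153475419 for Dnmt3b, chr2:160934556-160935155 for Chd6, chr10:36694304-36694559 for Hdac2 and chr3:97413823-97414140 for Chd1l. The authors' annotation gave granulocytes as the only stage of the Chd6 and Chd1l enhancers, although their H3K27ac was higher in GMP. For Chd6 and Chd1l the higher H3K4me1 in granulocytes is therefore not independent of the annotation.

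Hdac2 was the only member at least 2-fold different in H3K4me1 between GMP and granulocytes, where 5.32% of all genes were higher and 2.09% lower. At the other end, Setd4 had 2.78 in LSK, 2.92 in preGM, 3.41 in GMP and 1.31 in granulocytes (-0.71). Smarcd3 (6.25, 5.45, 5.24 and 3.50) and Setd3 (2.34, 2.37, 2.93 and 1.85) followed it. The median member ratio was 0.26 and that of all genes 0.34. After subtraction of the latter, Hdac2 was higher and 1 member, Setd4, lower by at least 2-fold (all genes, 0.872% higher and 8.05% lower).

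**Figure D3:**
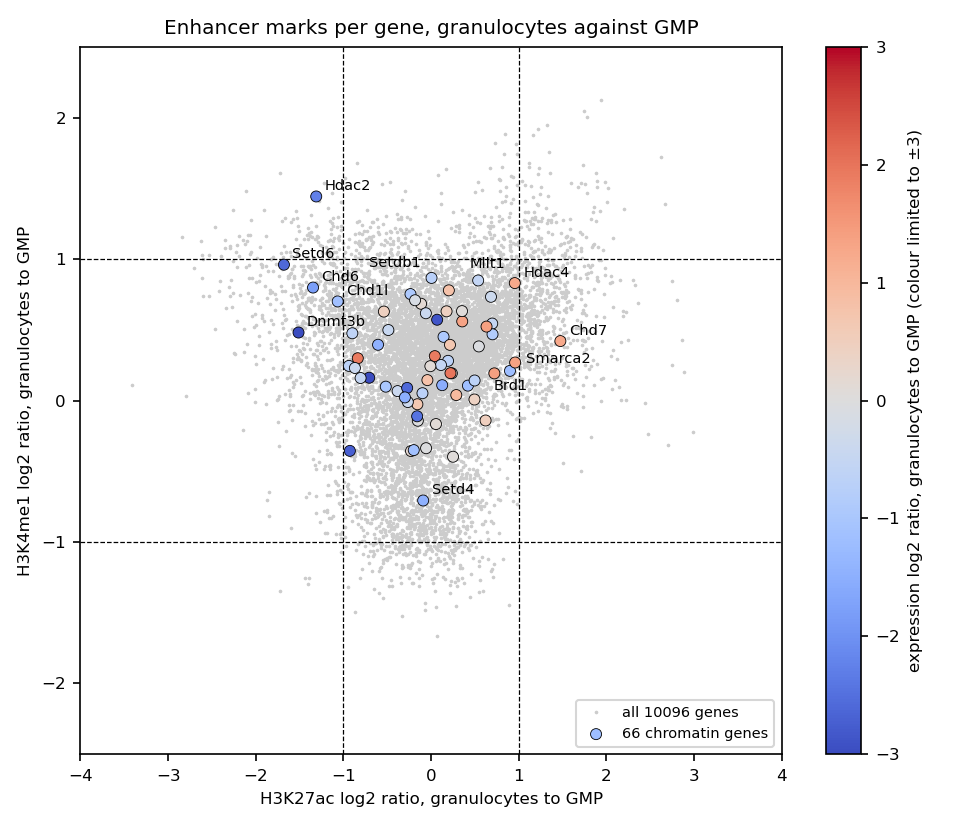
H3K27ac (x axis) and H3K4me1 (y axis) log2 ratios of granulocytes to GMP for all 10096 genes (grey) and the 66 chromatin genes (coloured by expression ratio, limited to 3 in either direction); dashed lines mark 2-fold. Setd6, Dnmt3b, Chd6, Hdac2 and Chd1l lie at the upper left, with H3K27ac ratios from -1.68 to -1.07 and H3K4me1 above 0. The enhancers of Chd6 and Chd1l were annotated to granulocytes alone.

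Across the 66 members the H3K27ac ratio and the expression ratio of granulocytes to GMP had a Pearson correlation of 0.53 (all genes, 0.46), and the H3K4me1 and expression ratios of -0.012 (all genes, 0.015). The points share the same columns, so these are descriptions. Of the 17 members with lower expression 13 had an H3K27ac ratio below 0 (76.5%; all such genes, 74.4%), and of the 9 with higher expression 8 had it above 0 (88.9%; all such genes, 86.9%). The exception among the 9 was Brd2, whose H3K27ac was 3.58 in LSK, 4.41 in preGM, 10.99 in GMP and 5.85 in granulocytes, highest where its expression was lowest. Dnmt1, among the members with the lowest expression ratios, had H3K27ac of 1.48, 1.68, 2.48 and 2.64, and H3K4me1 of 2.38, 2.31, 3.66 and 6.41. Kdm2b had H3K27ac of 1.28, 1.44, 1.97 and 0.936, within 2-fold.

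Chd7 and Hdac4 had the most enhancers with higher H3K27ac in granulocytes. For Chd7 it was 11 of 16, spread over 238 kb of chromosome 4, and for Hdac4 10 of 20, over 192 kb of chromosome 1, compared with 14.1% of all enhancers higher and 6.05% lower. Neither gene had an enhancer that was 2-fold lower. The Chd7 enhancer with the highest ratio, at chr4:8750299-8750505 and annotated as bound by CEBPA, had 1.19 in GMP and 12.9 in granulocytes. At Hdac4 it was chr1:93946801-93947157, with no annotated factor, at 0.383 and 6.81. Kdm6b had 1 of 11 such enhancers, chr11:69228461-69228696, at 0.934 and 7.38. Chd2 had 5 of 22, Brd3 4 of 12 and Dnmt3a 4 of 13. Enhancers of 1 gene share their source and are not replicates. The authors' annotation gave granulocytes as the only stage of 4 of the 16 Chd7 and 10 of the 20 Hdac4 enhancers. The same held for 9 of 22 at Chd2 and 4 of 12 at Brd3 (all enhancers, 21.2%). For such regions a higher signal in granulocytes is not independent of the annotation.

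**Figure D4:**
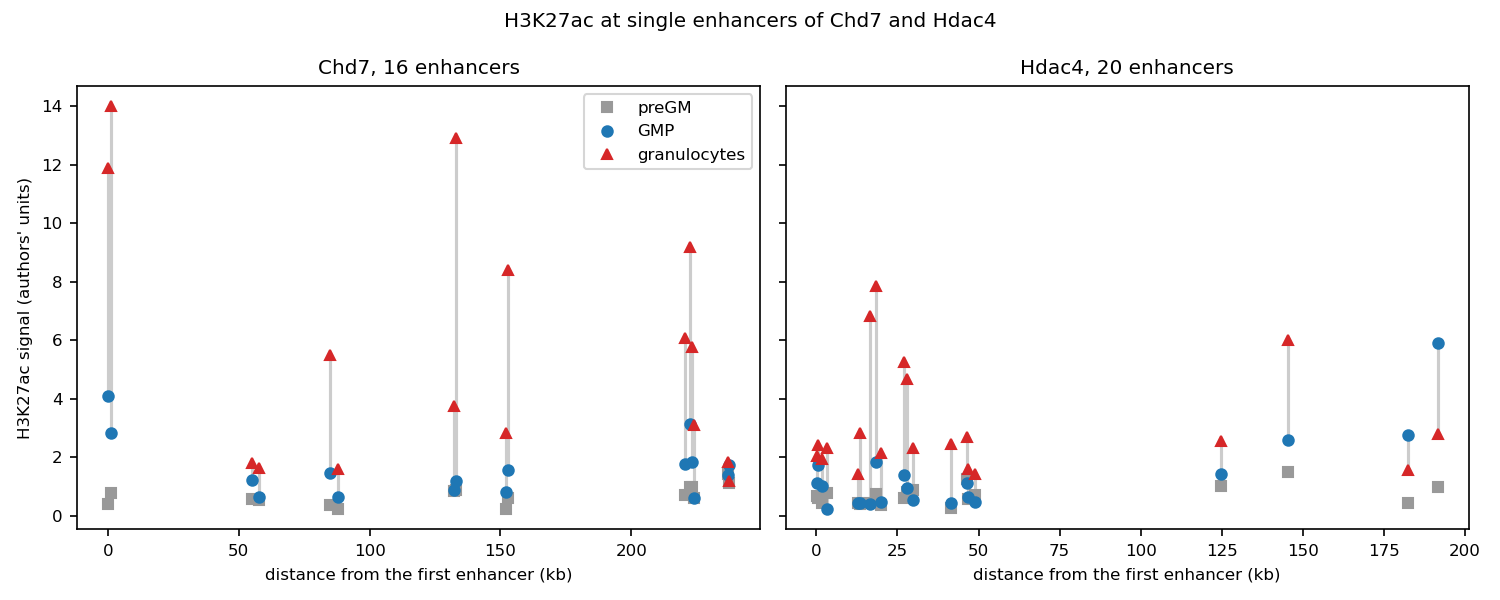
H3K27ac signal (y axis, authors' units) at each of the 16 enhancers of Chd7 and 20 of Hdac4 by distance from the gene's first enhancer (x axis, kb), in preGM (grey squares), GMP (blue circles) and granulocytes (red triangles), with lines joining GMP to granulocytes. Granulocytes lie above GMP at 15 Chd7 and 18 Hdac4 enhancers.

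Single enhancers also went the other way within genes that did not pass the limit as a whole. At Brd2, chr17:34259028-34259617 had 32.5 in GMP and 10.9 in granulocytes, and at Kdm2b, chr5:123438773-123439177 had 7.11 and 2.03. For H3K4me1, Chd2 had 7 and Hdac4 5 enhancers at least 2-fold higher in granulocytes (all enhancers, 9.69% higher and 2.81% lower). Here too, regions annotated to granulocytes alone are among those counted for these genes. At Chd2, chr7:80716481-80716570 had 0.890 in GMP and 7.76 in granulocytes. Kdm6b held the 2 lowest ratios, at chr11:69223950-69224006 with 10.6 and 2.58 and at chr11:69224824-69224846 with 9.54 and 2.36, beside an H3K4me1 mean over its 11 enhancers of 7.51 and 8.87.

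Few members differed 2-fold at the earlier steps. From LSK to preGM H3K27ac was at least 2-fold higher for Kdm5b and lower for none (all genes, 0.456% and 0.188%). Kdm5b, a demethylase of lysine 4 of histone H3, had 0.705 in LSK, 2.35 in preGM, 2.91 in GMP and 2.64 in granulocytes (1.12). Next in order were Kdm4c, at 1.96 in LSK and 4.15 in preGM, and Mll3, at 5.56 and 9.59. At the low end were Hdac11, at 1.01 and 0.456, Brd1, at 1.06 and 0.638, and Chd1, at 0.448 and 0.232. H3K4me1 was within 2-fold for all 66 (all genes, 0.0099% higher and 0.0099% lower). It ran from Hdac11, at 5.28 in LSK and 2.83 in preGM, Hdac2, at 5.26 and 3.26, and Chd1l, at 3.83 and 2.46, to Kdm2a, at 1.57 and 2.06, Brd1, at 2.88 and 3.73, and Chd6, at 1.29 and 1.88. Expression was also within 2-fold for all 66 (all genes, 1.61% higher and 0.802% lower), with Dnmt3b, Chd3 and Mll1 lowest (ratios of -0.64 to -0.47) and Smarcad1, Setd6 and Kdm2b highest (0.61 to 0.80).

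From preGM to GMP, H3K27ac was at least 2-fold higher for 4 members and lower for 0 (all genes, 9.05% and 0.178%). No region of the table is annotated to LSK or preGM without GMP. The scarcity of lower values in GMP is therefore not independent of the annotation. Brd2 had 4.41 in preGM and 10.99 in GMP (1.19), Smarcc2 2.18 and 5.77 (1.17), Kdm3b, a demethylase of lysine 9, 0.894 and 2.72 (1.10), and Chd8, a CHD remodeller, 3.62 and 8.04 (1.02). The median ratio was 0.42 in the members and 0.42 in all genes, and after its subtraction 0 of the 66 passed 2-fold. Hdac9 (1.07 and 0.509) and Dnmt3l (1.05 and 0.543) had the lowest ratios. H3K4me1 was within 2-fold for all members (all genes, 0.238% higher and 0.0099% lower), from Hdac11, at 2.83 and 1.84, Brd7, at 2.99 and 2.58, and Hdac2, at 3.26 and 2.95, to Mll5, at 1.73 and 3.17, Setdb2, at 1.79 and 3.31, and Setd8, at 1.87 and 3.44. Expression was at least 2-fold lower in GMP for Brd2, Mll5 and Chd3 and higher for 0 members (all genes, 2.86% higher and 2.89% lower). Brd2 and Mll5 had their lowest value there and higher values again in granulocytes, while Chd3 had its lowest value in granulocytes (70.8, within 2-fold of GMP). The highest ratios were those of Setd5, at 110 in preGM and 231 in GMP (0.86), Chd7 (0.84) and Kdm2b (0.82).

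PU.1 signal at the members' enhancers was higher in preGM than in LSK for 57 of 66 genes (86.4%; all genes, 87.5%). By at least 2-fold it was higher for 1 and lower for 0 (all genes, 2.79% and 0%). That gene was Chd1, a remodeller that binds methylated lysine 4 of histone H3, with 1 enhancer on chromosome 17 (chr17:15846348-15847160). It had 3.12 in LSK, 8.31 in preGM, 7.66 in GMP and 3.10 in KO preGM. Its ratio of preGM to LSK was 1.26, and 0.90 after subtraction of the median of all genes (0.37), which is within 2-fold. Tet2 followed, at 1.81, 3.89, 3.76 and 1.79, and then Kdm5a, at 2.19, 4.16, 4.50 and 2.14. Dnmt3l (0.982 in LSK and 0.649 in preGM), Hdac9 (0.830 and 0.580) and Mll3 (1.63 and 1.43) had the lowest ratios. From preGM to GMP none of the 66 passed 2-fold (all genes, 0.317% higher and 0.366% lower), with Hdac10 lowest, at 7.25 in preGM and 4.62 in GMP, then Mllt4, at 11.7 and 8.002, and Brd1, at 2.07 and 1.32. Hdac9, Kdm4b and Kdm2a were highest, with ratios of 0.53, 0.33 and 0.30. A single Tet2 enhancer, chr3:133099353-133099584, annotated with CEBPA, had PU.1 signals of 0.418 in preGM and 2.67 in GMP.

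PU.1 signal was lower in Cebpa KO than in wild type preGM for 57 of 66 members (86.4%; all genes, 86.9%). By at least 2-fold it was lower for Chd1 and Mllt4 and higher for 0 (all genes, 3.39% lower and 0.0396% higher). Mllt4 had 8.43 in LSK, 11.7 in preGM, 8.002 in GMP and 5.51 in KO preGM (-1.005). Chd3 was next, at 4.05 in wild type and 1.83 in KO (-0.93). Setd1a (0.5999 in wild type and 0.942 in KO), Mllt10 (0.621 and 0.931) and Hdac9 (0.580 and 0.834) had the highest ratios. The median ratio was -0.40 in the members and -0.40 in all genes, so neither Chd1 nor Mllt4 passed 2-fold after its subtraction. By family the median ran from -0.65 in the 3 TET genes to -0.02 in the 5 bromodomain genes. This comparison and that of preGM with LSK share the wild type preGM column. For Chd1 the KO value lay beside the LSK value, and for Tet2 and Kdm5a as well. These are the 3 members with the highest ratios of preGM to LSK. Over all genes the median ratios of the 2 comparisons, 0.37 and -0.40, were also of similar size and opposite sign. Sfpi1, the gene of PU.1, had expression values of 302 in wild type and 196 in KO preGM. The part of Sfpi1 expression in the PU.1 differences was not tested.

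**Figure D5:**
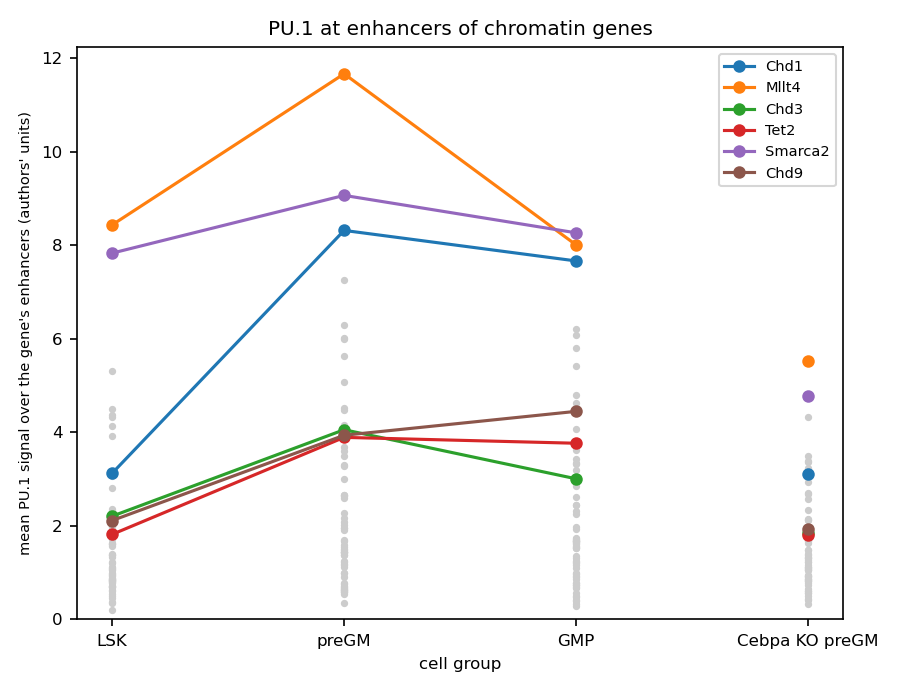
Mean PU.1 signal over each gene's enhancers (y axis, authors' units) in LSK, preGM, GMP and Cebpa KO preGM (x axis), 1 value per gene and group. Grey points are all 66 chromatin genes and coloured points 6 of them, with lines over the wild type stages; Chd1 stands at 3.12, 8.31 and 7.66, and at 3.10 in KO.

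Single enhancers showed larger differences in the KO. Chd7 had 4 of its 16 enhancers with PU.1 at least 2-fold lower, Hdac4 3 of 20, Tet2 3 of 11 and Mllt4 3 of 7 (all enhancers, 6.15% lower and 0.0955% higher). The 3 with the lowest ratios were all annotated as bound by PU.1 and CEBPA, as were 6.92% of member enhancers and 9.21% of all. They were picked as extremes, 2 of them are neighbouring Hdac4 regions, and a link with the annotation was not tested. At Hdac4, chr1:93930981-93931150 had 9.31 in wild type and 2.05 in KO, and chr1:93930568-93930755 had 9.35 and 2.36. At Tet2, chr3:133285886-133286300 had 17.9 and 5.96. The strongest PU.1 signal of any member enhancer, 42.3 in wild type preGM, was at Mllt4 (chr17:13820924-13821061), which had 20.01 in KO. CEBPA signal in wild type preGM was highest at the enhancer of Kdm5a, a lysine 4 demethylase (6.49, at chr6:120307226-120307919), and next at a Smarca2 enhancer (5.41, at chr19:26822862-26823264).

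The histone marks and expression of the members hardly differed between KO and wild type preGM. Cebpa itself had expression values of 208 in wild type and 48.3 in KO. H3K27ac was within 2-fold for all 66 members (all genes, 0.178% higher and 0.119% lower). The lowest ratios were those of Setdb2, at 0.623 in wild type and 0.206 in KO, Kdm4c, at 4.15 and 3.003, and Kdm2a, at 1.07 and 0.686. The highest were those of Hdac11, at 0.456 and 0.925, Mllt1, at 3.16 and 4.65, and Dnmt3b, at 2.87 and 3.98. H3K4me1 was within 2-fold for all 66 (all genes, 0% higher and 0.0099% lower). Its ratios ran from -0.12 in Dnmt3l, Smarca5 and Hdac11 to 0.29 in Smarcad1 and Dnmt3b and 0.31 in Hdac2.

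Expression was within 2-fold between KO and wild type preGM for all 66 members (all genes, 0.277% higher and 0.406% lower). Kdm5b had the highest ratio, with 497 in wild type and 818 in KO (0.68), followed by Dnmt3a with 430 and 576 (0.39) and Smarcad1 with 764 and 973 (0.33). Hdac9 had the lowest, with 124 and 66.1 (-0.63), followed by Dnmt1 with 1437 and 1079 (-0.40) and Mllt4 with 94.1 and 67.0 (-0.33). Among the other members, Mll1 was at 897 and 1000, Tet1 at 680 and 679, Tet2 at 194 and 186, Tet3 at 184 and 157, Dnmt3b at 268 and 286, Kdm6b at 85.6 and 112, Chd7 at 188 and 152, Smarca2 at 533 and 463 and Hdac7 at 139 and 142. In the same columns the summed monocyte markers were 2576 in wild type and 383 in KO, and the mature neutrophil markers 1585 and 378. Primary granule markers summed to 9107 and 4714, of which Mpo made up 6433 and 4372. The other primary granule genes were Ctsg at 2096 and 190, Prtn3 at 366 and 99.2, and Elane at 213 and 53.1. Stem and progenitor markers summed to 4951 and 3375, with Ly6a higher in KO (128 and 229) and the others lower. The T and NK cell markers summed to 195 and 395, the erythroid to 260 and 311, and the B cell to 86.5 and 92.2. Genes of 1 list differed: Tcf7 was at 74.1 and 245 but Il2rb at 52.2 and 49.7, and Cxcr2 at 570 and 87.7 but Mmp9 at 41.8 and 43.0. The part of these in the differences was not tested.

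The 2 sets of expression columns do not share a scale, and they share an order of genes only in part. Wild type preGM is in both, and over all genes the log2 values had a Pearson correlation of 0.78 and a rank correlation of 0.79. LSK and preGM within the stage set had 0.97 on either measure. Over the 66 members the 2 wild type preGM columns had 0.54, with a rank correlation of 0.55. Kdm2b was at 2243 in preGM of the stage set and 123 in preGM of the KO set, Smarcd2 at 4579 and 239, and Chd3 at 324 and 3698. The sources used here do not say how either set was made, so values were compared only within a set. Fold differences were taken within a gene. Sums of markers, and values called low at every stage, do set levels of genes side by side and are descriptions only.

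Other genes of the same pathways were counted from a list of 98, of which 73 had an enhancer in the table. Between GMP and granulocytes 21 of the 73 had expression at least 2-fold lower and 3 higher, where 18.9% of all genes were lower and 11.4% higher. Of the 20 Polycomb genes 7 were lower, among them Bmi1 (1795 in GMP and 76.1 in granulocytes), a core subunit of PRC1, and Suz12 (2205 and 360), a core subunit of PRC2. The remodeller Hells, a partner of DNA methylation, was at 1810 and 40.9, and Hat1, which acetylates new histones, at 840 and 117. The deacetylase Sirt7 (435 and 1294), the BAF subunit Bcl7b (36.5 and 143) and the methyl-CG binding protein Mbd2 (617 and 1504) were the 3 higher. H3K27ac was lower for 7 of the 73 and higher for 1, Mbd2, at 2.99 and 7.31 (all genes, 7.57% lower and 7.81% higher). Bcl7a, a BAF subunit, had the lowest ratio, at 5.40 and 0.497, and its H3K4me1 was 3.73 in GMP and 10.6 in granulocytes. In KO preGM no gene of the 73 was 2-fold different in expression or in either histone mark, and PU.1 was lower at 3, Mbd2, Gatad2a and Dot1l (all genes, 3.39%).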

How the data were processed

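Values came from a deposited table of 44002 enhancers in build mm9. Its ChIP-seq columns hold, per the file headers, 1 signal value per assay, stage and genotype, which the authors made from libraries of sorted cells; the sources used here do not say how they were pooled or scaled. Per the labels' protocols a variable amount of E. coli DNA was mixed into the precipitated DNA before amplification. The deposited expression columns, whose unit the authors' labels do not state, were read as linear values, since they are never 0, lowest 2.04, and not whole numbers. They were matched to RNA groups by column name. Whether they come from the listed RNA libraries is not stated. The submitters' processing notes name Bowtie2, MACS2, bedtools, STAR, featureCounts and DESeq2, without versions. Depth per library is unknown. Of the value columns 11 were left out, 6 because their quantity is undescribed and 5 because they match none of the listed samples. The 77 listed samples are 53 of ChIP-seq and 24 of RNA-seq.

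With pandas 2.3.3 and numpy 2.4.6 in Python 3.11.15, each gene's signal was averaged over its enhancers. Pseudocounts were the 25th percentile of an assay's values (0.65 for H3K27ac, 2.44 for H3K4me1, 0.635 for PU.1 and 43.3 for expression), rounded to 1 significant digit as 0.7, 2, 0.6 and 40. The 15 comparisons were called at 2-fold, with no test. The steps were tested on simulated data. Named are members at least 2-fold different (at most 6 in each direction), the 3 highest and 3 lowest otherwise, 13 fixed genes in the expression comparisons, and the 3 highest and lowest enhancers per comparison; other names were chosen after their values were seen. Members and lists were chosen with earlier results of these data known. Gene names were those of the table; 60 members matched the reference directly and 6 by synonym (Mll1 is now Kmt2a, Mll2 Kmt2d, Mll3 Kmt2c, Mll5 Kmt2e, Mllt4 Afdn and Setd8 Kmt5a). The values of 1 member are not reported here; it stays in the counts, shares and medians. Coordinates are as the file gives them. Alternatives were other pseudocounts, a filter on low values, subtraction of the median of all genes, the strongest enhancer per gene, and the members without the 7 set apart (the fusion partners, Setd3 and Setd6).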

Additional observations from a re-analysis of the deposited data

How the results depend on the processing

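The direction of each of the 44 member values past 2-fold was kept under every alternative run, but most of this was fixed in advance. Another pseudocount cannot turn the direction of a ratio, and a smaller one can only enlarge it. The medians subtracted were too small to turn a value past 2-fold. A gene with a single enhancer keeps its value when the strongest enhancer is taken. Of them 44 stayed past 2-fold with a pseudocount 4 times smaller and with a filter on low values, 37 of 44 after subtraction of the median of all genes, 19 of 44 with a pseudocount 4 times larger, and 14 of the 15 values of marks and PU.1 with the strongest enhancer per gene. Counts of members at least 2-fold different depended more on the settings. With the smaller pseudocount they were 2 for H3K27ac from LSK to preGM, 9 from preGM to GMP, 14 from GMP to granulocytes and 1 in the KO, 8 for H3K4me1 from GMP to granulocytes, 3 and 4 for PU.1 from LSK to preGM and in the KO, and 7 for expression from preGM to GMP. With the larger pseudocount the same counts were 0 for H3K27ac from LSK to preGM, 0 from preGM to GMP and 2 from GMP to granulocytes, 0 for H3K4me1 from GMP to granulocytes, 0 and 0 for PU.1, and 1 for expression from preGM to GMP, with 16 from GMP to granulocytes. After subtraction of the median they were 0 for H3K27ac from preGM to GMP, 2 for H3K4me1 from GMP to granulocytes, and 0 and 0 for PU.1 from LSK to preGM and in the KO. With the strongest enhancer per gene they were 2, 12 and 13 for H3K27ac at the 3 successive steps, 3 for H3K4me1 from GMP to granulocytes, and 6 and 10 for PU.1 from LSK to preGM and in the KO. Without the 7 members set apart (the fusion partners, Setd3 and Setd6), PU.1 in the KO was lower for 1, Chd1. No paired analysis was possible because the table gives 1 value per group and does not separate replicates, and leaving out replicates was not run for that reason. Depth is unknown, so counting error could not be given; values near the pseudocount carry the least weight.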
